A study of Mus musculus with 18 samples.

Results

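Genes that carry only a catalogue number, such as Gm12250, or a RIKEN clone name, such as E030013I19Rik, were read out in elastase-induced aortic aneurysms of mice with and without lenvatinib and in normal aorta. All 13993 transcript clusters whose single gene symbol is Gm followed by a number or ends in Rik were taken, out of 65956 clusters on the Mouse Transcriptome Array 1.0, and none was left out. Of these, 11749 have a Gm symbol and 2244 a Rik symbol. They were split by the class that the array annotation gives them, which puts 3317 in Multiple_Complex, 3013 in NonCoding, 2619 in Small_RNA, 2124 in Pseudogene, 1954 in Coding, 794 in Precursor_microRNA, 170 in Ribosomal and 2 in Unassigned. A further 2803 clusters name several symbols of which at least 1 is of this kind, and they lie outside the rule.

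Gm numbers are given to gene models predicted from the genome sequence, and Rik names to cDNA clones of the RIKEN mouse collection, until a function earns a gene its own name. The set therefore mixes pseudogenes, which are copies of genes that mostly no longer make a full protein, long noncoding RNAs, small nuclear and nucleolar RNAs, and a smaller number of protein-coding genes of fast-evolving families. Several mouse interferon-inducible GTPases, which act on membranes of intracellular pathogens, and several nonclassical MHC class I genes still carry Gm names. Many of the noncoding members lie inside the introns or beside the exons of longer genes, and a pseudogene can share most of its sequence with its parent gene, so a probe cluster need not report only the transcript it is named for.

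The tissue was infrarenal aorta of 18 male mice, aged 10 weeks at induction, with 1 array per mouse. PPE + Lenva systemic aortas (n = 7) had porcine pancreatic elastase instilled and received lenvatinib, an inhibitor of several receptor tyrosine kinases, at 5 mg/kg in DMSO by daily gavage from day 7 to day 24, and PPE aortas (n = 6) had elastase without the drug. Normal aortas (n = 5) are labelled as having no treatment, so elastase and the operation cannot be told apart, and a vehicle for the PPE mice is not stated, so lenvatinib, DMSO and gavage cannot be told apart either. The labels give the mice as ApoE-/-, and for elastase the methods of the study used C57BL/6J animals of wild type, a difference that was not settled here. Sacrifice was on day 28.

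Values are log2 signals, so a difference of 1 is a doubling on the array's scale. The members were dim, with a median of the authors' group averages of 4.07 in PPE + Lenva systemic, 4.06 in PPE and 4.09 in normal aorta, against 4.09, 4.08 and 4.11 in the other clusters in the same order of groups. At the other end, 157 members sat at the ceiling of 19.93 in every group and could not show a difference. Signals per array exist for 1684 members (12.0%, against 18.2% of the other clusters), all chosen by the authors' overall F test over the 3 groups, and the remaining members enter with the authors' group averages and standard deviations. The check of tissue markers gave 6 of 7 macrophage markers called higher in both comparisons with normal aorta. Of 7 smooth muscle markers, 0 were called lower than normal in the drug-treated aortas and 4 in PPE (medians -0.72 and -1.04). In the drug-treated aortas Myh11, Smtn and Cnn1 differed from normal by -1.76, -1.09 and -1.60 and narrowly missed the threshold (limma adjusted p = 0.0686, 0.0771 and 0.0794). Acta2 sat at the ceiling in every group. None of the 7 was called between PPE + Lenva systemic and PPE. Of 5 endothelial markers, 4 were lower in PPE + Lenva systemic than in normal aorta and 3 in PPE (medians -1.67 and -1.69), of 3 T cell markers 2 and 0 were higher, and of 5 B and plasma cell markers 0 and 1 were higher. The log2 of the summed signal of the macrophage markers ranged from 18.86 to 19.66 in PPE + Lenva systemic and from 18.76 to 19.46 in PPE, and was 17.85, 16.07, 14.40, 18.02 and 18.96 in normal aorta replicates 1 to 5. For 6 smooth muscle markers it ranged from 17.03 to 18.28 in PPE + Lenva systemic, from 17.13 to 17.63 in PPE and from 17.86 to 19.10 in normal aorta. In whole tissue, fewer cells of a type and less RNA per cell cannot be told apart, and the part of cell makeup in the results was not tested.

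Promoter sequences were read for members that have a current RefSeq entry, and 5 that hold a match to a searched motif are shown, to let the letters before members of 3 kinds be compared: interferon-type, myeloid and lower in the aneurysms. RefSeq holds 8800 members under the array's symbol, 4700 were not matched, and the rest are held under a newer symbol that lists the old one as a synonym at the same place. A promoter window of 250 bases before to 50 bases after a start is printed in lower case, 5′ to 3′ on the strand of the gene, from RefSeq on GRCm38.p6, with matches in capitals. The motifs searched, on both strands, were the interferon-stimulated response element, the gamma-interferon activation site (TTCNNNGAA), a site of the myeloid and B cell factor PU.1 (GAGGAAGT), an Ets-type site (CAGGAAGT) that differs from it in its first base alone, the MCAT element (CATTCC) and the CArG box bound by serum response factor. Only matches of the interferon-stimulated element, the gamma-interferon site, the PU.1-type site and the CArG box are in capitals.
Gm12250, chr11:58183593-58183892, plus strand: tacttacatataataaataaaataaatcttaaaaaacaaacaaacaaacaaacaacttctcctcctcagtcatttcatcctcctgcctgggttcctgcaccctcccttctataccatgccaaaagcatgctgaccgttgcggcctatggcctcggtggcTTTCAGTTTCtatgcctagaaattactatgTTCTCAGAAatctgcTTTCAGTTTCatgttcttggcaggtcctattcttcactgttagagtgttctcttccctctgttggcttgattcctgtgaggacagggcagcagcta
Ifi206 (Gm4955), chr1:173491269-173491568, minus strand: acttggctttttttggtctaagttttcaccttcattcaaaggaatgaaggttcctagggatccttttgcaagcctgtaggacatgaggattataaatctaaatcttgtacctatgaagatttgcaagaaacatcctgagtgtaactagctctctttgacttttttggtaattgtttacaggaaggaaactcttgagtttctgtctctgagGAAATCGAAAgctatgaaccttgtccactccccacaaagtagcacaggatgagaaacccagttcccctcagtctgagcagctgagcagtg
Gm15448, chr7:3825711-3826010, minus strand: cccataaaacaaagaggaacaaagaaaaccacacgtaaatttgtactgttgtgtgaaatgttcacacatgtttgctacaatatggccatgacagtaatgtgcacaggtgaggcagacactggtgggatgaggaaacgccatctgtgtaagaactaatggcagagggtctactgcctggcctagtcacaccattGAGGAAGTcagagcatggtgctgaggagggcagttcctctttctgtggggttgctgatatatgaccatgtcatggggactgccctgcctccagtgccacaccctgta
Morrbid (Gm14005), chr2:128429302-128429601, minus strand: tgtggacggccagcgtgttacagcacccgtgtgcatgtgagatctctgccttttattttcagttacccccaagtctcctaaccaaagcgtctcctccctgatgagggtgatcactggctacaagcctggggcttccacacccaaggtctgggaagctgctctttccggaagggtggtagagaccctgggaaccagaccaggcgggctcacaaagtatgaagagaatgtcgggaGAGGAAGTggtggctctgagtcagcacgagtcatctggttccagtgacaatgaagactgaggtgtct
4833412C05Rik, chr7:67803447-67803746, minus strand: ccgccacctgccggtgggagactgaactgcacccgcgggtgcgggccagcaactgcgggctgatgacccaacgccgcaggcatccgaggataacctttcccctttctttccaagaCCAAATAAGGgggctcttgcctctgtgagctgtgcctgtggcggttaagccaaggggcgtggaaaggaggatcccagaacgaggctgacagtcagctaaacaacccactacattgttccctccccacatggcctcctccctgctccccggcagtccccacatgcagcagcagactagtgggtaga
Gm12250, an immunity-related GTPase, has the interferon-stimulated element at both of its outer matches and the gamma-interferon site between them, and Ifi206, a member of the interferon-inducible PYHIN family of DNA sensors that the array lists as Gm4955, has 1 match of the interferon-stimulated element. Gm15448, a paired immunoglobulin-like receptor gene model, and Morrbid, a long noncoding RNA of myeloid cells listed as Gm14005, have a PU.1-type site, and the noncoding 4833412C05Rik has a CArG box. Of 39 windows, from 33 genes, of members called higher in PPE + Lenva systemic than in normal aorta, 8 (20.5%) held the PU.1-type site, against 3.20% of all 32851 windows. Some of these 8, on chromosome 17, are near copies of each other, so they are not all separate sequences. The Ets-type site was in 7 of the 39 (17.9%), against 3.33%, and the interferon-stimulated element in 3 (7.69%), against 3.44%. Of the 52 windows of members called lower in that comparison, 0 held the PU.1-type site and 2 (3.85%) the CArG box, against 1.63% of all windows. The same 52 windows held the interferon-stimulated element in 2 (3.85%) and the gamma-interferon site in 5 (9.62%), so neither was confined to members called higher. Over all windows the gamma-interferon site was in 8.3% and the MCAT element in 14.7%, and over the 39 windows of members called higher they were in 2 and 7. Among members called in PPE vs. normal aorta, 2 of 13 windows of those higher held the PU.1-type site and 3 of 41 windows of those lower the CArG box. These matches are descriptions of letters in a window, few in number, and no binding was measured.

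Set against normal aorta, 270 members were higher and 192 lower in PPE + Lenva systemic at an adjusted p under 0.05 (limma, Benjamini-Hochberg over all clusters). In PPE vs. normal aorta, 151 were higher and 135 lower, and which direction had more calls there changed under several alternatives. Between PPE + Lenva systemic and PPE, 0 members were called by limma, with a lowest adjusted p of 0.782 among members. The background over all clusters was 6.1% called in PPE + Lenva systemic vs. normal aorta and 4.03% in PPE vs. normal aorta, and the members' 462 calls (3.3%) and 286 calls (2.04%) were less frequent than that in each. Among the other clusters the shares were 6.85% and 4.56%. Both comparisons use the same normal aortas, so their calls are not independent. At an unadjusted p under 0.05, 973 members were higher and 1048 lower in PPE + Lenva systemic than in normal aorta, against a background of 19.7% of all clusters (8.56% higher and 11.2% lower), and the members' share was 14.4%. In PPE vs. normal aorta 855 were higher and 1195 lower (14.7%), against 18.7% of all clusters (7.57% higher and 11.2% lower).

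Called Pseudogene members were mostly higher and called NonCoding members mostly lower. Of the Pseudogene members, 116 were higher and 12 lower in PPE + Lenva systemic than in normal aorta, and 65 were higher and 15 lower in PPE than in normal aorta. NonCoding members had 22 higher and 64 lower in PPE + Lenva systemic and 7 higher and 48 lower in PPE. Precursor_microRNA members had 4 higher and 32 lower in PPE + Lenva systemic and 1 higher and 9 lower in PPE. The background over all clusters, set against normal aorta, was 2.77% called higher and 3.33% called lower for PPE + Lenva systemic, and 1.41% called higher and 2.62% called lower for PPE. Against these, 5.46% and 3.06% of Pseudogene members were higher. Called lower were 2.12% and 1.59% of NonCoding members, below the background in each, and 4.03% and 1.13% of Precursor_microRNA members. Among 634 pseudogene clusters outside the set, 52 (8.2%) were higher and 3 lower in PPE + Lenva systemic, and 30 (4.73%) higher and 1 lower in PPE. These shares called higher are above those of the Pseudogene members. Among 28704 noncoding clusters outside the set, 203 were higher and 1162 (4.05%) lower in PPE + Lenva systemic, and 93 higher and 941 (3.28%) lower in PPE.

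**Figure D1:**
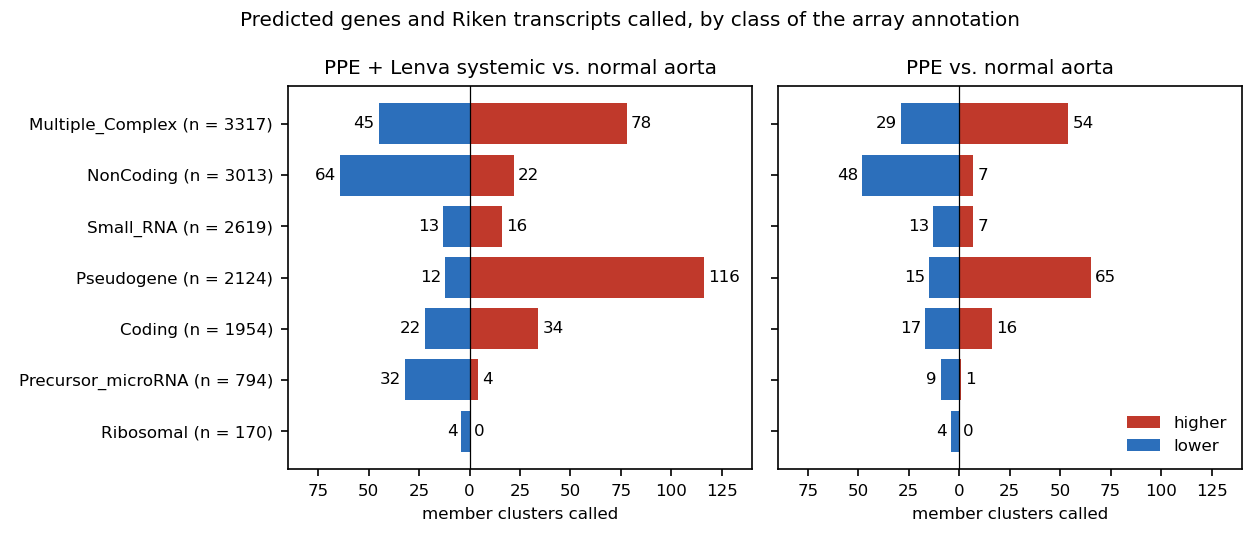
Number of predicted genes and Riken transcripts called higher (red, right of 0) or lower (blue, left of 0) in each class of the array annotation, for PPE + Lenva systemic vs. normal aorta and PPE vs. normal aorta. Among called members, Pseudogene ones were mostly higher (116 and 65 of 2124 members) and NonCoding ones mostly lower (64 and 48 of 3013 members). Most members of each class were not called. The NonCoding shares called lower, 2.12% and 1.59%, lie below those over all clusters, 3.33% and 2.62%. The 2 Unassigned members are not drawn.

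By RefSeq biotype, of 3641 members held as pseudogenes, 161 were higher and 18 lower in PPE + Lenva systemic and 96 higher and 21 lower in PPE. Of 2125 held as lncRNA, 18 were higher and 39 lower in PPE + Lenva systemic, and 4 higher and 32 lower in PPE. Pseudogenes called higher made up 4.42% and 2.64% of theirs, against 2.77% and 1.41% of all clusters. Called lower were 1.84% and 1.51% of those held as lncRNA, below the 3.33% and 2.62% of all clusters. Calls in both directions were more frequent where the highest group average was 8 or more than where it was under 5. A member can reach the brighter class through the group in which it is high, so this split depends on the result. Among the 1986 members at 8 or more, 7.40% were higher in PPE + Lenva systemic and 4.88% in PPE. Among the 9539 members under 5 these shares were 0.356% and 0.126%. The shares called lower were 2.37% and 1.11% at 8 or more and 0.692% and 0.629% under 5. The other clusters had this pattern too, with 11.8% and 7.62% higher at 8 or more and 0.492% and 0.155% higher under 5.

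Some of the members lower in the aneurysms lay inside genes that were lower too, while 102 of the 192 called lower in PPE + Lenva systemic and 75 of the 135 in PPE lay inside no other gene by the rule used. A member was counted as inside another gene where a cluster with a different single symbol spans at least 50% of it, which holds for 1394 members on the strand of that gene and 2261 on the other strand. Of the 41 members called lower in PPE vs. normal aorta that lie on the strand of such a gene, 26 (63.4%) lie in a gene that was itself called lower and 0 in one called higher. Over all 1394 such members, 123 (8.82%) lie in a gene called lower. On the opposite strand the count was 7 of 19 (36.8%), against 169 of 2261 (7.47%). In PPE + Lenva systemic vs. normal aorta, 33 of 65 (50.8%) same-strand members called lower lay in a gene called lower, against 129 of 1394 (9.25%). Of 21 same-strand members called higher in PPE, 4 lay in a gene called higher, against 3.37% of all 1394. Whether such a member has a transcript of its own or its probes read RNA of the longer gene was not tested.

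**Figure D2:**
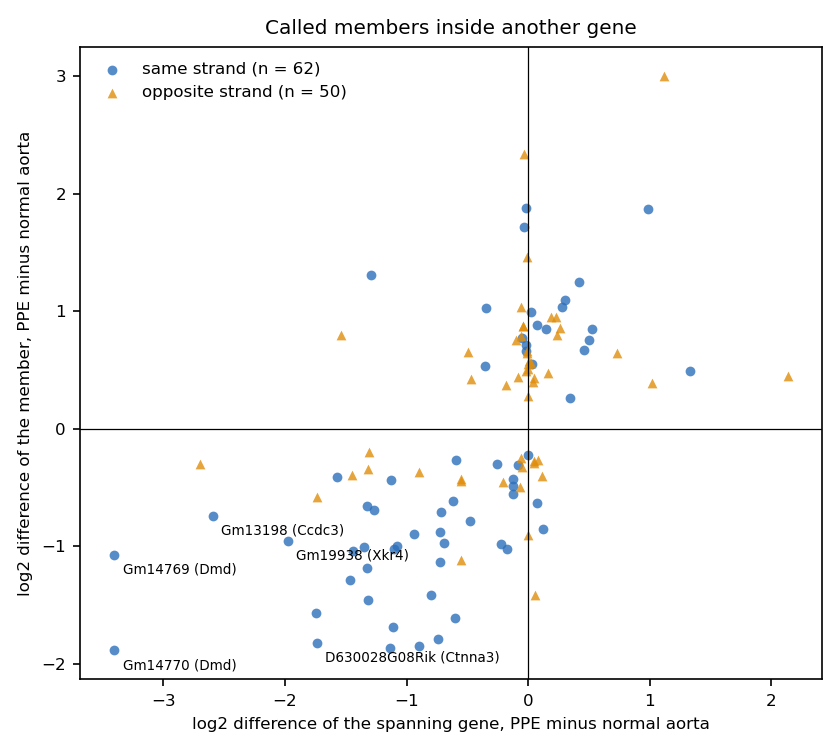
Log2 difference between PPE and normal aorta of each called member (vertical axis) against that of the gene that spans it (horizontal axis), by strand, for 62 members on the same strand and 50 on the opposite one. Of the 41 same-strand members below 0, 26 lie in a gene that was itself called lower, among them both members in Dmd.

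Gm14770 and Gm14769 both lie in Dmd, the gene of dystrophin, which ties the cytoskeleton of muscle cells to the matrix. Gm14770 (chromosome X, 84879887 to 84880198, plus strand, mm10) had signals of 5.29, 6.31 and 6.57 in PPE + Lenva systemic (lowest, median and highest), 5.61, 5.99 and 6.43 in PPE, and 8.59, 7.88, 8.36, 7.28 and 7.38 in normal aorta. Every aneurysm array lay below every normal one. The difference was -1.74 (SE 0.26, limma adjusted p = 0.000907) in PPE + Lenva systemic and -1.88 (SE 0.27, adjusted p = 0.000619) in PPE. Dmd itself differed by -2.52 and -3.40. Gm14769, which RefSeq lists as a pseudogene and which lies farther upstream on the plus strand (84063333 to 84063764), averaged 7.40 ± 0.40, 7.26 ± 0.30 and 8.33 ± 0.34 in PPE + Lenva systemic, PPE and normal aorta (SD, n = 7, 6 and 5) and was lower in both comparisons (-0.93 and -1.07, adjusted p = 0.0105 and 0.00604).

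Gm15268 lies in Col4a5 and Gm15077 in Col4a6, a pair of neighbouring genes for chains of basement membrane collagen on chromosome X. Gm15268 (141627959 to 141628468, plus strand) had 4.58, 4.96 and 5.61 in PPE + Lenva systemic, 4.81, 5.26 and 5.49 in PPE, and 6.89, 6.76, 7.00, 7.25 and 7.26 in normal aorta, a wide gap with no overlap. Its difference was -1.91 (SE 0.17, limma adjusted p = 1.5e-05) in PPE + Lenva systemic and -1.85 (SE 0.18, adjusted p = 2.75e-05) in PPE, the smallest adjusted p among the members in each comparison. Col4a5 differed by less, -0.89 and -0.90. Gm15077 (141302349 to 141302710, minus strand) differed by -1.51 (SE 0.22, adjusted p = 0.000866) in PPE + Lenva systemic and by -1.61 (SE 0.23, adjusted p = 0.000633) in PPE, with normal aorta replicate 2 at 5.29 near the aneurysm values and the other normal arrays from 6.31 to 6.85. Col4a6 differed by -0.47 and -0.60.

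D630028G08Rik lies in Ctnna3, which encodes an alpha-catenin of muscle cell junctions (chromosome 10, 64018380 to 64020961, plus strand). Its signals were 4.25, 4.55 and 6.08 in PPE + Lenva systemic, 4.37, 4.69 and 4.94 in PPE, and 6.14, 6.49, 6.98, 6.29 and 6.5 in normal aorta. Replicate 2 of PPE + Lenva systemic, at 6.08, stood near the normal arrays, and the others were below 5. The difference was -1.73 (SE 0.24, limma adjusted p = 0.00067) in PPE + Lenva systemic and -1.82 (SE 0.25, adjusted p = 0.000526) in PPE, close to the -1.51 and -1.74 of Ctnna3. 8430431K14Rik lies in Prkg1, the cGMP-dependent kinase through which nitric oxide relaxes smooth muscle, on chromosome 19 (31213543 to 31216396, minus strand). It averaged 7.18 ± 0.53, 7.31 ± 0.32 and 9.0 ± 0.29 in PPE + Lenva systemic, PPE and normal aorta, with no overlap between the normal arrays and the others (adjusted p = 0.000265 and 0.000574). Prkg1 differed by -0.74 (adjusted p = 0.0664) in PPE + Lenva systemic and by -1.11 (adjusted p = 0.0139) in PPE.

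Gm13312 lies in Cacnb2, a calcium channel subunit gene, on chromosome 2 (14672255 to 14672720, plus strand), and averaged 5.42 ± 0.69, 5.08 ± 0.19 and 6.94 ± 0.48 in PPE + Lenva systemic, PPE and normal aorta. All PPE arrays were below all normal arrays, while the PPE + Lenva systemic arrays, from 4.50 to 6.57, overlapped them. The difference was called in both (limma adjusted p = 0.00522 and 0.00153), as was that of Gm10400 in the phosphodiesterase gene Pde3a (-0.95 and -1.46, adjusted p = 0.0426 and 0.00604) and that of A830039N20Rik in the potassium channel gene Kcnma1 (-0.76 and -1.04, adjusted p = 0.0495 and 0.0155). The drug-treated call of A830039N20Rik was lost in 20 of 27 alternatives. D630036G22Rik in Dst, a cytoskeletal linker gene, was called lower in PPE (-1.79, adjusted p = 0.0191), and its difference in PPE + Lenva systemic was -1.07 (adjusted p = 0.118). Gm11451, a pseudogene on chromosome 2 with no gene spanning it, was lower in both (-1.04 and -1.59, adjusted p = 0.0426 and 0.00631).

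**Figure D3:**
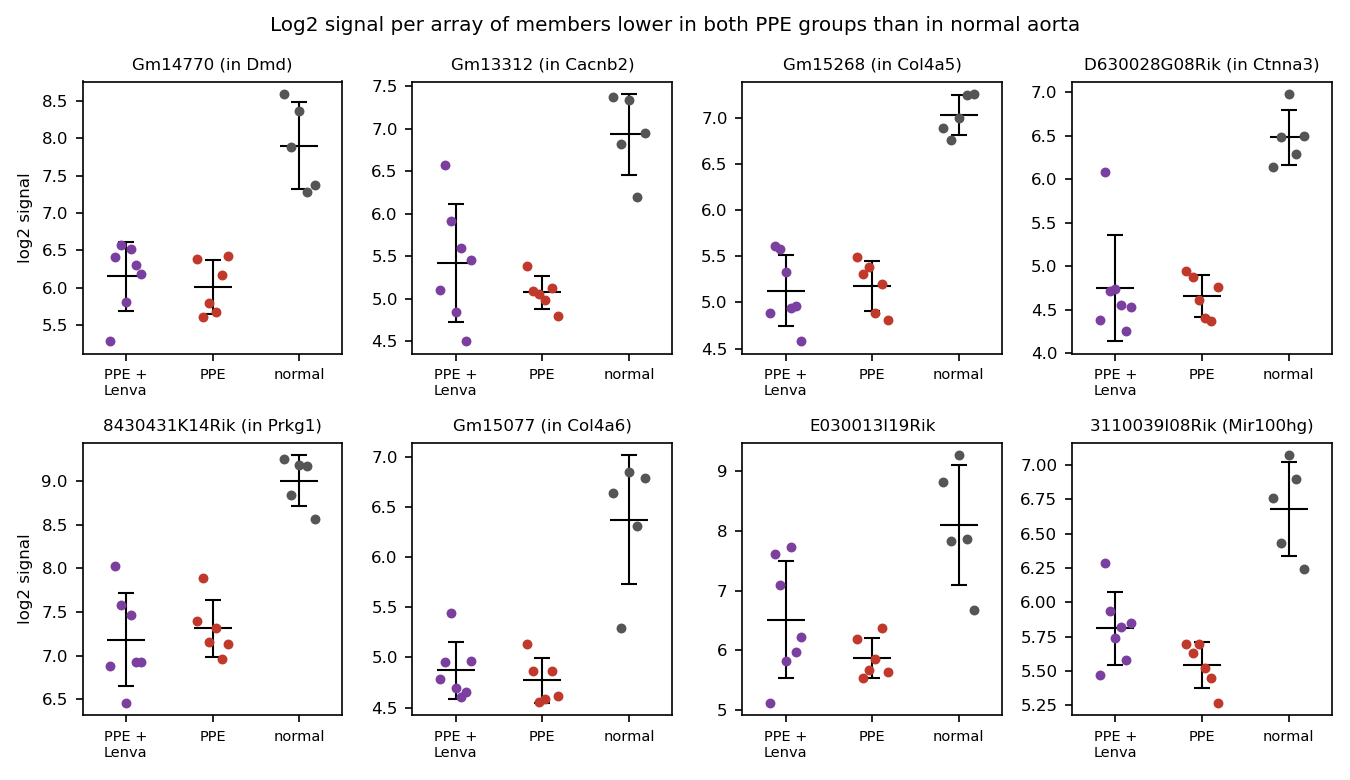
Log2 signal of each array for 8 members called lower than in normal aorta in both comparisons, with the mean (line) and SD (bars) of 7 PPE + Lenva systemic, 6 PPE and 5 normal aortas. In Gm15268 every normal array, from 6.76 up, lies above every aneurysm array, which reach 5.61 at most, while in E030013I19Rik the PPE + Lenva systemic and normal arrays overlap.

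The largest fall in PPE was that of E030013I19Rik, a noncoding transcript on chromosome 2 (12300947 to 12312315, plus strand) that touches Itga8, the gene of an integrin subunit of smooth muscle, which differed by -2.85 between PPE and normal aorta (limma adjusted p = 0.00973). Its signals were 5.12, 6.23 and 7.74 in PPE + Lenva systemic, 5.53, 5.76 and 6.37 in PPE, and 8.83, 7.84, 9.27, 7.87 and 6.67 in normal aorta. PPE arrays were all below the normal ones, and the PPE + Lenva systemic arrays spread over both. The difference was -1.58 (SE 0.46, adjusted p = 0.0498) in PPE + Lenva systemic and -2.22 (SE 0.48, adjusted p = 0.0134) in PPE. The first of these calls was lost in 18 of 27 alternatives.

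Among members with a newer name, 3110039I08Rik is now Mir100hg, the transcript that contains microRNAs of the miR-100, let-7 and miR-125b families. Its cluster at 41327117 to 41432079 of chromosome 9 (plus strand) averaged 5.81 ± 0.27, 5.55 ± 0.17 and 6.68 ± 0.34 in PPE + Lenva systemic, PPE and normal aorta, and all PPE arrays were below all normal arrays. It was lower by -0.87 (SE 0.15, limma adjusted p = 0.00248) in PPE + Lenva systemic and by -1.14 (SE 0.15, adjusted p = 0.000401) in PPE. A second cluster of the same symbol, at 41474937 to 41617772, differed by -0.14 and -0.52 and was not called (adjusted p = 0.784 and 0.135). 3632451O06Rik, now Armh4, was lower in both (-1.05 and -0.92, adjusted p = 0.000465 and 0.00171), with all aneurysm arrays below all normal ones. The noncoding 4833412C05Rik, whose window with a CArG box is printed above, was dim, at 4.07 ± 0.13, 4.04 ± 0.18 and 4.64 ± 0.17, and lower in both without overlap (adjusted p = 0.00171 and 0.00152).

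Of the members in Celf2, the gene of an RNA-binding splicing regulator, 3 on its strand were called lower in at least 1 comparison while Celf2 was not called. Gm10115 (chromosome 2, 6950439 to 6951680, minus strand) had 8.79, 9.29 and 10.20 in PPE + Lenva systemic, 9.53, 10.00 and 10.41 in PPE, and 11.38, 10.42, 10.76, 10.85 and 10.78 in normal aorta. The normal arrays were the highest, and those of PPE + Lenva systemic overlapped those of PPE. Gm10115 was lower in both comparisons, by -1.49 (SE 0.22, limma adjusted p = 0.000985) in PPE + Lenva systemic and by -0.85 (SE 0.23, adjusted p = 0.0468) in PPE, a call that was lost in 18 of 27 alternatives. Gm10855 and 5031426D15Rik, within the same stretch, were lower in PPE + Lenva systemic than in normal aorta (-1.32 and -1.16, adjusted p = 0.00745 and 0.0209) and differed by -0.74 and -0.56 in PPE (adjusted p = 0.135 and 0.313). Celf2 differed by 0.02 and 0.12 (adjusted p = 0.966 and 0.608). On the opposite strand of Celf2, Gm26565 was lower in PPE + Lenva systemic than in normal aorta (-0.41, adjusted p = 0.0407). Between PPE + Lenva systemic and PPE the 3 same-strand members differed by -0.65, -0.58 and -0.59, none of it past the threshold (adjusted p = 0.782, 0.812 and 0.84).

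Members of interferon-inducible families were among the largest rises. Of 10 GTPase-like symbols listed, 6 were measured under a symbol of their own, of which 5 were higher in PPE + Lenva systemic than in normal aorta and 1 in PPE, with median differences of 2.36 and 1.91. The median over all members was -0.01 in each comparison, and 2.77% and 1.41% of all clusters were called higher. Gm12250 (chromosome 11, 58183843 to 58190198, plus strand) had 5.32, 7.00 and 9.21 in PPE + Lenva systemic, 5.13, 6.49 and 8.10 in PPE, and 3.53, 4.19, 3.43, 5.11 and 5.21 in normal aorta. The PPE + Lenva systemic arrays were all above the normal ones, by a narrow margin at the lowest, and 1 PPE array overlapped them. Its difference was 2.83 (SE 0.68, limma adjusted p = 0.0214) in PPE + Lenva systemic and 2.35 (SE 0.71, adjusted p = 0.0711) in PPE.

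Gm4951 on chromosome 18, an immunity-related GTPase, was called in both comparisons (2.67, SE 0.66, limma adjusted p = 0.0239, and 2.53, SE 0.68, adjusted p = 0.0453), with 8.29, 9.66 and 11.16 in PPE + Lenva systemic, 8.13, 9.77 and 10.89 in PPE, and 6.73, 6.51, 5.33, 8.18 and 8.59 in normal aorta. Normal replicates 4 and 5 reached the lowest aneurysm arrays. The call in PPE was lost in 13 of 27 alternatives. Gm1966 and Gm8995 on chromosome 7, of the family of very large interferon-induced GTPases, were higher in PPE + Lenva systemic (2.54 and 2.19, adjusted p = 0.0301 and 0.0283), as was Gm5431 on chromosome 11 (1.91, adjusted p = 0.0214). Their differences in PPE were 2.0, 1.84 and 1.68 and did not pass (adjusted p = 0.107, 0.083 and 0.0578). Gm4841 differed by 0.91 and 0.99 and was not called in either (adjusted p = 0.138 and 0.135). Gm4759, a transcribed pseudogene in the same region as Gm8995 and chosen after its values were seen, was higher in both (1.93 and 1.88, adjusted p = 0.0138 and 0.024). These calls were lost in 1 and 6 of 27 alternatives.

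Both PYHIN family members on chromosome 1 had large differences. Gm16340, now Ifi203-ps and so a pseudogene, averaged 11.3 ± 0.75, 11.4 ± 1.13 and 8.94 ± 1.5 in PPE + Lenva systemic, PPE and normal aorta and was higher in both (limma adjusted p = 0.0312 and 0.039), beside its parent Ifi203 with 2.62 and 2.64. Gm4955, now Ifi206, had the largest rise of any member in PPE + Lenva systemic vs. normal aorta, 3.18 (SE 0.91, adjusted p = 0.0464), and differed by 2.38 in PPE (adjusted p = 0.163). Its arrays spread from 7.25 to 11.42 in PPE + Lenva systemic and from 6.01 to 10.98 in PPE, and were 5.85, 5.99, 4.95, 7.72 and 7.88 in normal aorta. The call of Gm4955 was lost in 15 of 27 alternatives. Gm6904, now Phf11 and held by RefSeq as a pseudogene, was higher in PPE + Lenva systemic (2.30, adjusted p = 0.0181) and differed by 1.81 in PPE (adjusted p = 0.0757).

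**Figure D4:**
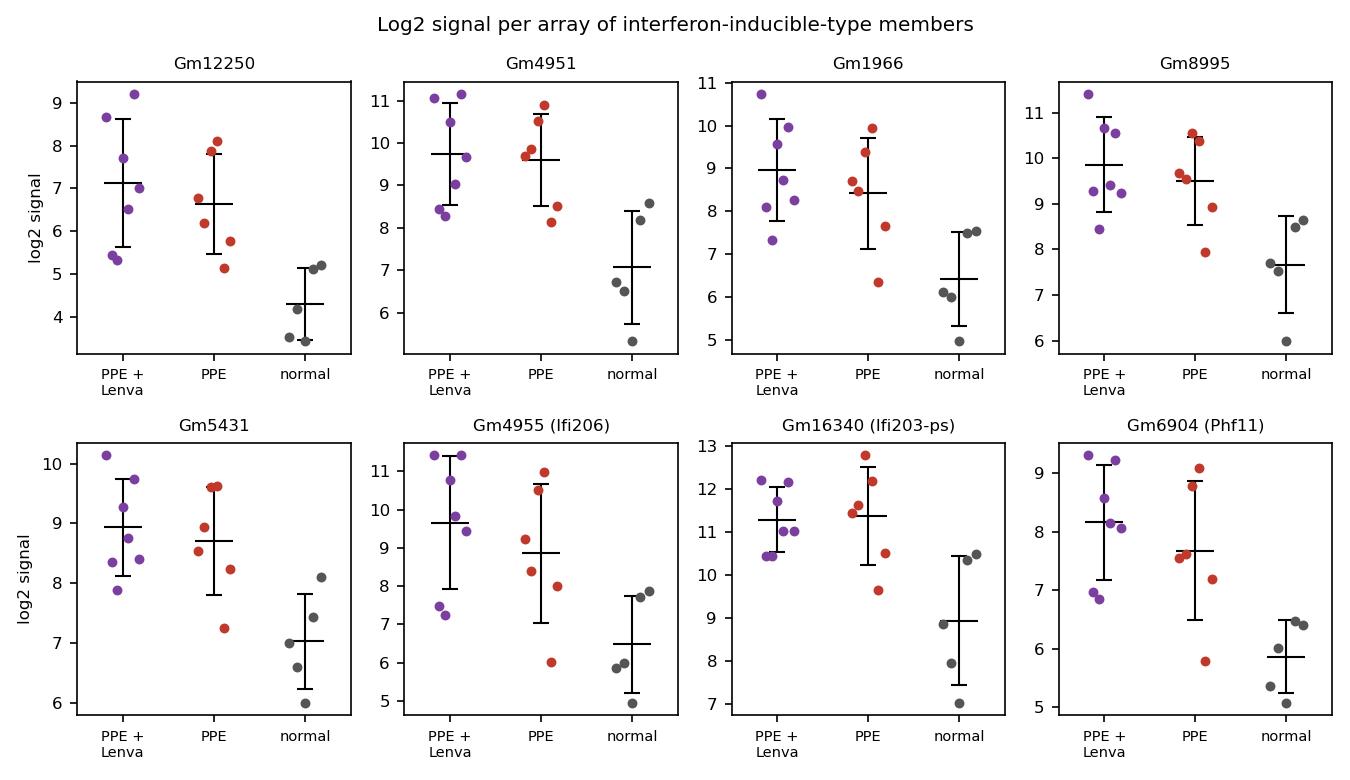
Log2 signal of each array for 8 members of interferon-inducible families, with the mean (line) and SD (bars) of 7 PPE + Lenva systemic, 6 PPE and 5 normal aortas. Most aneurysm arrays lie above the normal ones, and in Gm12250 all PPE + Lenva systemic arrays, from 5.32 up, lie above the normal ones, which reach 5.21.

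In all of these members normal replicates 4 and 5 were the highest of the normal arrays, and replicate 3 was the lowest in all 8 members plotted. The same replicates had the highest and the lowest summed signal of macrophage markers among the normal arrays, 18.02 and 18.96 against 14.40. What part macrophage content had in these rises was not tested.

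Of 4 MHC class I-like members of chromosome 17, 1 was higher in PPE + Lenva systemic than in normal aorta and 2 in PPE, with medians of 0.25 and 0.36. Over all clusters, 2.77% and 1.41% were called higher in these comparisons. Gm8909 was higher in both without overlap (0.43 and 0.41, limma adjusted p = 0.0206 and 0.037), at 5.84 ± 0.23, 5.82 ± 0.16 and 5.41 ± 0.09. Its calls were lost in 1 and 9 of 27 alternatives. Gm7030 was higher in PPE (0.36, adjusted p = 0.0161), and its difference in PPE + Lenva systemic was 0.17 (adjusted p = 0.227). Of 3 measured receptor-like members, Gm15448 on chromosome 7 was higher in PPE + Lenva systemic (1.44, SE 0.37, adjusted p = 0.0299) with no array below the normal ones, and differed by 1.29 in PPE (adjusted p = 0.069). Gm5150 and Gm9733 on chromosome 3 differed by 1.00 and 0.74 in PPE + Lenva systemic and by 0.68 and 0.79 in PPE and were not called. The Ccl21-like symbols were not measured as single-symbol clusters.

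Smaller rises were seen in members whose newer names carry a known role. Gm14005, now Morrbid, which in mouse prolongs the life of short-lived myeloid cells and represses the neighbouring gene Bcl2l11, was higher in both (0.58 and 0.47, limma adjusted p = 0.0125 and 0.0493, the second lost in 18 of 27 alternatives), at 5.54 ± 0.19, 5.44 ± 0.24 and 4.96 ± 0.25. Bcl2l11 differed by 0.69 between PPE and normal aorta (adjusted p = 0.0586). 2810417H13Rik, now Pclaf, a partner of the replication clamp PCNA, was higher in both (0.56 and 0.55, adjusted p = 0.0212 and 0.0339, lost in 5 and 10 of 27 alternatives). A630033H20Rik, now P2ry10b, a receptor-like gene of lymphocytes, was higher in PPE + Lenva systemic (0.92, adjusted p = 0.0196) and differed by 0.46 in PPE (adjusted p = 0.288). The noncoding C920009B18Rik, which has a PU.1-type site in its window, was higher in both without overlap (0.91 and 0.79, adjusted p = 0.00978 and 0.0319). These 4 were chosen after their values were seen.

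Pseudogenes could be set against their parents where RefSeq's name gives the parent. Of 55 such members, 6 were higher in PPE + Lenva systemic than in normal aorta and 5 in PPE, and 0 were lower in either. In PPE + Lenva systemic vs. normal aorta the parents of all 6 were called higher, and in PPE vs. normal aorta the parent of 1 of 5. Over all 55 members, 11 had a parent called higher in PPE + Lenva systemic and 4 in PPE. A parent with several copies, such as Rps18, counts once for each copy, so these are not numbers of separate genes. Gm8822, a copy of the actin-nucleating Actr3, was higher by 1.96 and 1.52, with Actr3 at 1.58 and 1.16. Gm11361 and Gm10260, copies of the ribosomal protein gene Rps18, were bright, with means over the groups of 13.4 and 14.4, and higher in both comparisons (1.11 and 1.19 in PPE + Lenva systemic, limma adjusted p = 0.00585 and 0.00536). The single-symbol cluster of Rps18 itself, at 6.04, was far dimmer and differed by 0.28 in PPE + Lenva systemic. Signals of a copy and its parent cannot be told apart where they share sequence.

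A stretch of chromosome 4 that holds repeated gene models near the chemokine gene Ccl19 gave several of the other large rises. Gm10600 (42240639 to 42242685, plus strand) had 9.97, 10.48 and 11.85 in PPE + Lenva systemic, 8.56, 11.16 and 12.17 in PPE, and 9.54, 6.30, 5.26, 8.81 and 9.88 in normal aorta. Normal replicates 2 and 3 were far below the other arrays, and the other normal arrays overlapped those of PPE and not those of PPE + Lenva systemic. Its difference was 2.79 (SE 0.75, limma adjusted p = 0.036) in PPE + Lenva systemic and 3.01 (SE 0.78, adjusted p = 0.0371) in PPE. Gm13303 was called in both too (2.49 and 2.6, adjusted p = 0.038 and 0.0468, the second lost in 19 of 27 alternatives). So was Gm2163 (1.45 and 1.66, adjusted p = 0.0395 and 0.0322, lost in 12 and 9 of 27). Gm13302 was called in PPE + Lenva systemic (1.99, adjusted p = 0.0434, lost in 15 of 27 alternatives). Gm10601 differed by 2.24 and 2.37 without passing (adjusted p = 0.06 and 0.0667). PPE replicate 5 was the lowest PPE array in Gm10600, Gm13303, Gm2163, Gm13302 and Gm10601 alike. Whether these repeated models share probes was not tested, so their rises need not be separate measurements. Gm21955 in the same region went the other way in PPE + Lenva systemic (-1.16, adjusted p = 0.00198) and differed by -0.44 in PPE (adjusted p = 0.228).

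The largest rise of any member in PPE was that of Gm4242, 1 of the 2 Unassigned members, which lies at the end of chromosome 19 (61232397 to 61232935, minus strand) with Csf2ra as its nearest named neighbour. Its signals were 6.33, 7.25 and 9.0 in PPE + Lenva systemic, 7.61, 9.93 and 12.87 in PPE, and 6.11, 5.23, 4.68, 5.66 and 6.23 in normal aorta. Both aneurysm groups lay above the normal arrays and overlapped each other. The difference was 4.21 (SE 0.78, limma adjusted p = 0.00526), an 18.5-fold rise, in PPE, and 1.90 (SE 0.75, adjusted p = 0.151) in PPE + Lenva systemic. Between PPE + Lenva systemic and PPE it was -2.31 (SE 0.72, limma adjusted p = 0.782). Of the markers of B and plasma cells, only Cd79b, Jchain and Mzb1 have values per array, as the authors' overall F test over the groups selected them. Ms4a1 and Cd79a are therefore not in their sum. The sum adds signals before the log2 is taken, so the brightest marker weighs most. In PPE that was Jchain, which averaged 9.38 against 5.17 for Mzb1 and 5.54 for Cd79b. This sum varied with Gm4242 across the PPE arrays. In PPE replicates 1 to 6 Gm4242 was at 12.87, 7.83, 7.61, 9.91, 10.58 and 9.94, and the log2 of the summed signal of the 3 such markers with array values at 13.05, 7.31, 7.16, 10.2, 10.04 and 9.85, so replicate 1 was the highest and replicates 2 and 3 the lowest in both. The sum ranged from 6.82 to 8.91 in PPE + Lenva systemic and from 6.21 to 7.14 in normal aorta. Of the 5 markers, 0 were called higher in PPE + Lenva systemic than in normal aorta and 1 in PPE, which was Jchain, the joining chain of secreted antibodies (3.47, adjusted p = 0.0459), and Ms4a1 and Cd79a of B cells differed by 0.05 and 0.36 in PPE without passing. Between PPE + Lenva systemic and PPE, where no marker was called, Jchain, Mzb1 and Cd79b differed by -2.04, -0.80 and -0.17. Ms4a1 and Cd79a went the other way there, by 1.14 and 0.21. The part of these cells in the rise of Gm4242 was not tested.

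Of 294 members on chromosome Y, 3 were higher and 1 lower in PPE + Lenva systemic than in normal aorta, and 2 were higher and 0 lower in PPE. These shares, 1.02% and 0.34%, and 0.68% and 0.0%, lie below those over all clusters. The 2 higher in PPE, Gm21748 and Gm21860, have identical values in every array and are 1 measurement, 9.50 ± 0.75, 9.88 ± 1.49 and 6.87 ± 1.78 in PPE + Lenva systemic, PPE and normal aorta (limma adjusted p = 0.043 and 0.0345), calls that were lost in 16 and 10 of 27 alternatives. Gm21748 lies in the part of Y where Mid1 is annotated. Gm20775 was higher in PPE + Lenva systemic (0.86, adjusted p = 0.00683). Over all members, 38 fall into 16 sets with identical values, among them Gm14297, Gm14307 and Gm16359, which were called in both comparisons and count as 3 calls for 1 measurement.

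Of 2619 Small_RNA members, 16 were higher and 13 lower in PPE + Lenva systemic than in normal aorta, and 7 higher and 13 lower in PPE. These are 0.611% and 0.496%, and 0.267% and 0.496%, each below the share over all clusters given above. Gm24564 and Gm25107 were the members with the largest falls, after adjustment, among Small_RNA members in PPE + Lenva systemic (-1.82 and -1.60, limma adjusted p = 0.0259 and 0.04), and they differed by -1.52 and -1.36 in PPE without passing (adjusted p = 0.0798 and 0.104). Among members of other classes, Gm15899, a short cluster inside Cbfa2t3, was very bright and higher in both comparisons, at 16.7 ± 0.48, 16.3 ± 0.99 and 14.45 ± 0.76 (adjusted p = 0.00517 and 0.0204), while Cbfa2t3 differed by -0.02 in each. Gm14699 and Gm11787, on chromosomes X and 4, were higher in both as well (2.41 and 2.34, adjusted p = 0.0132 and 0.0229, and 2.24 and 2.09, adjusted p = 0.0158 and 0.0333). Gm11037, in Hspa12b, was lower in both (-1.50 and -1.02, adjusted p = 0.003 and 0.0393).

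Between PPE + Lenva systemic and PPE, 815 members had an unadjusted p under 0.05 (limma), 510 higher and 305 lower, which is 5.82% of the members against 5.81% of all clusters (3.41% higher and 2.4% lower). After adjustment the share called was 0.0% of all clusters. The smallest p was that of Gm12959, inside Foxj3 on the opposite strand, with 5.10, 5.30 and 5.55 in PPE + Lenva systemic, 5.57, 5.63 and 5.96 in PPE, and 5.13, 5.36, 5.31, 5.46 and 5.35 in normal aorta. All PPE arrays were above all others. The difference was -0.39 (SE 0.08, limma adjusted p = 0.782), and PPE was above normal aorta by 0.37 (adjusted p = 0.0198). Gm22303, a small RNA model inside Rock2, differed by -0.84 (limma adjusted p = 0.782) with no overlap, at 10.1 ± 0.37 in PPE + Lenva systemic and 10.9 ± 0.32 in PPE. Gm10080, a bright pseudogene on chromosome 9 that is not among the smallest p, was lower in PPE than in normal aorta (-1.61, adjusted p = 0.0075), and its 7 PPE + Lenva systemic arrays were all above its 6 PPE arrays, with 15.04, 15.45 and 16.67 against 14.28, 14.56 and 14.68. That difference was 0.94 (SE 0.29, limma adjusted p = 0.782). The other members with the smallest p in each direction were Gm11388 (0.34), Gm5390 (0.27), Gm22543 (0.40), Gm10271 (0.26) and 9130008F23Rik (0.46), higher in PPE + Lenva systemic, and Gm23300 (-0.48), Gm3902 (-0.40) and Gm21955 (-0.72), lower, all with an adjusted p of 0.782. A p that misses the threshold does not show that the groups were alike.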

How the data were processed

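RNA of 18 infrarenal aortas was hybridised to Mouse Transcriptome Array 1.0 chips. The authors ran SST-RMA (Transcriptome Analysis Console 4.0.1.36, build mm10 in the submitters' processing notes) to give a log2 signal for each cluster, and deposited these per array for 11121 clusters that their overall F test selected (p of 0.05 or less). Their 3 comparison tables hold group averages and standard deviations, in log2 and other values written with decimal commas, for 65956 clusters. Their fold changes, p and FDR columns hold the authors' own comparisons and were not used, except the F test p to find how the signal table was chosen. All sample columns were mapped to a sample.

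Differences of group means were tested with limma 3.58.1 in R 4.3.3, in a model of 3 groups and no covariates. The variance prior (2.136 degrees of freedom) was estimated on the deposited standard deviations of every cluster that varies, and p-values were adjusted over all 65956 clusters. Clusters outside the signal table entered with the authors' averages, which are Tukey biweight averages and not plain means, and their standard deviations. The procedure was run on simulated data with independent noise for each cluster and array and no ceiling. These arrays have a ceiling and may share variation between clusters, so that run does not measure false calls here. Tables and figures were made with Python 3.11.15, pandas 2.3.3 and matplotlib 3.10.9. The RefSeq tables are of GRCm38.p6, the build mm10, and supplied current symbols, biotypes and promoter windows.

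Members, lists and tests were chosen with earlier results of these data known. Named members are, per comparison, the 10 largest rises and 10 largest falls among those called (where under 5 were called in a direction, the 5 with the smallest p), and up to 5 of the brightest in each listed family. The rule also asked for the 10 members with the highest mean signal, which ties at the ceiling do not allow. Others named were chosen after their values were seen: Gm14769, Gm10400, A830039N20Rik, Gm10115, Gm10855, Gm26565, 5031426D15Rik, Gm4759, 3110039I08Rik, 3632451O06Rik, 4833412C05Rik, the members with newer names, the pseudogenes set against parents, Gm6904, Gm2531, Gm14297, Gm14307 and Gm16359, and Gm13302, Gm10601 and Gm2163. Replicates are separate mice, whose number limits the precision. Same-numbered arrays correlated over 0.1 in 6 of 16 pairs, so the numbers were not taken to pair the mice. Alternatives covered the arrays in the fit, scaling, dim clusters, the prior, the averages, the adjustment, a fold limit, the brightest cluster per symbol, a block for replicate number and fits without 1 array at a time. Chosen after seeing the data were 2 more: calls limited to clusters with signals per array, and identical clusters counted once.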

Additional observations from a re-analysis of the deposited data

Results flagged for a closer look

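Among 219 groups of values of the named members, 11 (5.02%) had an array that stood apart by Dixon's test, and about 1 in 20 would do so by chance. In PPE + Lenva systemic, replicate 2 was the highest array for D630028G08Rik (6.08, next 4.74), Gm10080 (16.67, next 15.60) and Gm2531 (9.51, next 8.86), replicate 3 was the highest for Gm15077 (5.44, next 4.96), and replicate 1 was the highest for Gm11127 (5.40, next 4.89). In PPE, replicate 5 was the lowest for Gm10260 (13.96, next 14.66). In normal aorta, replicate 1 was the highest for Gm10855 (10.69, next 9.91) and Gm10271 (4.29, next 4.07), replicate 5 was the highest for Gm14769 (8.93, next 8.25), replicate 2 was the lowest for Gm11388 (3.86, next 4.08), and replicate 3 was the lowest for Gm8909 (5.26, next 5.42).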

How the results depend on the processing

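In PPE + Lenva systemic vs. PPE, 0 members were called by limma under every alternative run. Requiring a difference of at least 2-fold left 115 members in PPE + Lenva systemic vs. normal aorta and 69 in PPE vs. normal aorta. With a replicate block, 182 and 112 were called, and with only the 2 groups compared 279 and 319. Leaving out dim clusters, whose highest average is under 5, gave 653 members in PPE + Lenva systemic and 478 in PPE, of which 64.6% were higher, against 52.8% without this filter. Leaving out each array gave 208 to 508 members in PPE + Lenva systemic and 140 to 409 in PPE. These fits, median-centring, quantile normalization and the replicate block altered values or model only for clusters with signals per array. The other clusters kept the authors' averages and standard deviations of the full groups. The counts fell by over 1.5 times in PPE + Lenva systemic without normal replicate 2 (232) or 3 (208) or PPE + Lenva systemic replicate 1 (267) or 6 (285), and in PPE without normal replicate 2 (163) or 3 (142) or PPE replicate 1 (187), 2 (171) or 4 (140). The cause was not tested. The other alternatives kept each count within 1.5 times, and median-centring and quantile normalization moved the share of higher calls by under 10 percentage points. The lower calls outnumbered the higher ones in PPE + Lenva systemic without its replicate 5 (225 higher, 236 lower) and equalled them without normal replicate 3 (104 each). In PPE they outnumbered them with only the 2 groups (146 higher, 173 lower), a prior with a trend (136, 137), the replicate block (53, 59), and without normal replicate 2 (72, 91), 3 (60, 82) or 5 (134, 136) or PPE replicate 2 (83, 88), 3 (88, 104) or 4 (67, 73). Of 88 calls of named members, 36 stayed past the threshold under every alternative run on them, and 0 turned in sign. The replicate block ended 29 of 50 such calls in PPE + Lenva systemic and 19 of 38 in PPE. Among the falls, those of Gm14770, Gm15268, Gm15077, D630028G08Rik, 8430431K14Rik, Gm13312, 3110039I08Rik and 3632451O06Rik held throughout in both comparisons. Among the rises, Gm4951, Gm10600, Gm13303, Gm16340, Gm2163, Gm4759, Gm8909, Gm14005, 2810417H13Rik, Gm21748 and Gm21860 lost the call in both under some alternatives. Gm10260, Gm11361, Gm14699 and C920009B18Rik lost it under some in PPE and under none in PPE + Lenva systemic. Other named calls were lost in some of 27 alternatives too. In PPE + Lenva systemic vs. normal aorta these included Gm25107 and Gm10400 (11 each), Gm1966, Gm8995 and Gm15448 (7 each), Gm24564 (5), Gm12250 (4) and Gm5431 (3). In PPE vs. normal aorta they included Gm11787 (9) and Gm15899 (6). A call not listed here need not have held throughout.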
